A study of Mus musculus with 21 samples.

Results

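The Toll-like receptor genes Tlr1 to Tlr9 and Cd14, which encodes a protein that hands bacterial lipids to several of these receptors, were followed through 7 groups of mouse colon libraries. They were found by gene symbol in the deposited count table, which lists 24062 genes, and all 10 had enough counts to be tested among the 15936 genes that passed the filter on low counts. In wild-type mice Tlr1 fell in colon tumours, 3.30-fold in males and 3.92-fold in females, and Tlr4, Tlr5 and Tlr3 fell in both sexes. The male calls of Tlr4, Tlr5 and Tlr3 and the female call of Tlr3 were each lost without certain single libraries. Leaving out 1 library at a time left 1 to 3 of the 4 male calls. Of all tested genes, 35.7% passed the test in wild-type males and 49.1% in wild-type females. Tlr2 rose 2.82-fold in tumours of wild-type females. In App knock-in males none of the 10 genes passed the test between tumour and normal colon (20.4% of all tested genes did). The direct test of a difference in tumour effect between genotypes in males was also passed by none of the 10 (1.51% of all tested genes did). Tumours of knock-in males held more Tlr1 and Tlr4 RNA than those of wild-type males, calls that were lost without 1 library for Tlr1 and without any 1 of the 6 libraries for Tlr4, and normal colon of knock-in females held less Tlr4 and Cd14 RNA than that of wild-type females.

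All libraries were made from colon of C57BL/6 mice, and the groups had 3 libraries each. The wild-type groups were normal colon and tumour of males and normal colon and tumour of females. The App NL-G-F groups were normal colon and tumour of males and normal colon of females; tumours of knock-in females were not analysed here. App NL-G-F is a knock-in in which the mouse amyloid precursor protein gene carries a humanised amyloid-beta stretch with the Swedish, Iberian and Arctic mutations of familial Alzheimer's disease, under the gene's own promoter. Tumour libraries are labelled with the treatment AOM/DSS, which is azoxymethane, a colon carcinogen, given with dextran sulphate sodium, a polymer that injures the colon lining and causes colitis. Normal libraries are labelled as not treated, whereas the series' design text describes normal samples as colon beside a tumour, or as colon of mice in which none formed, so the exposure of each normal library is not settled. The ages and the number of tumours or animals behind a library are not given in the sources used here. The labels do not state that libraries of a group came from separate animals, so the p-values measure the spread between these libraries.

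Library totals ran from 3414123 to 26174008 counts, so that 3 counts, taken as the floor, correspond to 0.127 to 0.873 CPM (counts relative to the scaled total of the library). Counts of pairs of replicates differed by more than sampling noise, with chi-square values per degree of freedom of 6.98 to 67.2 over genes, so no library was taken for a copy of another. The 5 colon epithelium markers Cdx2, Car1, Slc26a3, Muc2 and Fcgbp were detected in every group, with sums from 2764 to 46294 CPM over the libraries. Wild-type female normal colon stood at the upper end of that sum, at 22812 to 46294 CPM, and had the smallest share of counts on the ribosomal RNA precursor Rn45s, 2.84 to 3.18%, against 4.85 to 14.1% in the other groups. These differences touch each comparison below that uses that group, and their part in the results was not tested. The 3 libraries with the highest running numbers, 152 to 154, were replicates 2 and 3 of the wild-type female tumours and replicate 3 of the knock-in male tumours.

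Toll-like receptors are membrane proteins that recognise conserved parts of microbes through leucine-rich repeats and signal through an intracellular TIR domain. Tlr1 and Tlr6 each pair with Tlr2 at the cell surface to bind bacterial lipopeptides, Tlr4 with its partner Ly96 (MD-2) binds lipopolysaccharide passed on by Lbp and Cd14, and Tlr5 binds flagellin. Tlr3, Tlr7, Tlr8 and Tlr9 sense nucleic acids inside endosomes. All but Tlr3 signal through the adaptor Myd88, Tlr3 signals through Ticam1 (TRIF), and Tlr4 uses both, leading to NF-kappaB and interferon regulatory factors. In the colon the receptors are known from epithelial cells, macrophages, dendritic cells and other cells that face the gut flora. RNA of a whole tissue piece was measured, so fewer cells of a type and less RNA per cell cannot be told apart in any of the results.

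The genes Tlr1 and Tlr6 are neighbours on chromosome 5 (Tlr1 at chr5:64924679-64933563, Tlr6 at chr5:64952031-64960097, GRCm38, both on the minus strand, GENCODE M21), and part of their coding sequence is the same letter for letter. This matters for their counts, because a read that lies within such a stretch cannot be placed, and how the deposited counts treat such reads is not given in the sources used here. The longest stretch of identical coding sequence runs over 229 bases and spans coding bases 1468 to 1696 of Tlr1 (chr5:64925537-64925765) and 1507 to 1735 of Tlr6 (chr5:64953828-64954056).
Tlr1 and Tlr6 shared: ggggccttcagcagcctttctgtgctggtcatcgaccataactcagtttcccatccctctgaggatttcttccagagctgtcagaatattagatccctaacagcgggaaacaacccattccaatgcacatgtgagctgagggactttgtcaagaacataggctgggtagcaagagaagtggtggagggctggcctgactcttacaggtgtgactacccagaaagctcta
Of the 2976 stretches of 50 bases in the Tlr1 transcript considered, 454 (15.3%) also occur in Tlr6, where they make up 12.5%. No other 2 of the 10 genes shared a stretch of this length. Counts of Tlr6, which were 6 to 54 per library, are therefore uncertain beside those of Tlr1, which were 62 to 2308. Tlr3 is the single gene of the set whose exons overlap another annotated gene, the antisense Gm45542, over 381 bases, and Gm45542 has no row in the count table.

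Tlr1 and Tlr2 form 1 receptor at the cell surface, and their RNA levels went in opposite directions across the libraries, as described below, so the sequence before each start site is shown. Each holds the 250 bases before the start (RefSeq, GRCm38.p6), and capitals mark matches to 4 motifs that were searched on both strands. These were a kappaB motif (GGG, any 3 bases, TTCC), a PU.1 motif (GAGGAAG), an interferon response motif, ISRE (GAAA, any 2 bases, GAAA), and an AP-1 motif (TGANTCA).
Tlr1 (chr5:64933559-64933808, minus strand): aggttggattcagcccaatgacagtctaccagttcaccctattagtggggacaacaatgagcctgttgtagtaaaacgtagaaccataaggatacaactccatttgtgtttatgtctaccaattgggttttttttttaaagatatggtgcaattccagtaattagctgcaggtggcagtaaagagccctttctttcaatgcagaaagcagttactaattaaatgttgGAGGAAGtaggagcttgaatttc
Tlr2 (chr3:83841609-83841858, minus strand): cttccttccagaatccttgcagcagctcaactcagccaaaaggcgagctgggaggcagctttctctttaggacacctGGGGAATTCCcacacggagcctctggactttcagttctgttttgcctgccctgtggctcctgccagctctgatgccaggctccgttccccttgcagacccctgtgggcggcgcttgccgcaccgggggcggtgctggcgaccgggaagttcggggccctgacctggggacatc
In Tlr1 the PU.1 motif began 23 bases before the start, and a second start listed for the gene had no match to the 4 motifs in its window. In Tlr2 the match was the kappaB motif GGGGAATTCC, which began 173 bases before the start. Among the remaining genes with an entry, Tlr3 held a kappaB match (GGGAGTTTCC) beginning 211 bases before its start and Tlr9 held PU.1 and AP-1 matches (GAGGAAG and TGACTCA) beginning 112 and 58 bases before it. Of the starts of Tlr6, 1 held 2 matches to the ISRE motif on the opposite strand, which overlap each other, and the other a kappaB match (GGGTAATTCC). Tlr5 and Tlr8 held none of the 4 motifs. Of 32851 promoter windows of this length, 4.65% held the kappaB motif, 10.6% the PU.1 motif, 2.98% the ISRE motif and 6.75% the AP-1 motif. These matches are a description of letters and no measure of binding. Tlr4 and Tlr7 had no entry, and the window of Cd14 was not used here.

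Levels of different genes were compared per length, as CPM per kilobase of merged exons, averaged over the 21 libraries. Cd14 was the most abundant of the set at 35.7 CPM per kilobase, followed by Tlr1 at 17.7, Tlr2 at 10.4, Tlr4 at 9.89 and Tlr3 at 5.85. The other 5 receptors were rarer, with 1.61 CPM per kilobase for Tlr9, 1.22 for Tlr8, 1.22 for Tlr7, 1.18 for Tlr5 and 0.538 for Tlr6. The 5 upper places thus went to Tlr1, Tlr2, Tlr4, Cd14 and the double-stranded RNA receptor Tlr3, whereas Tlr6, the other partner of Tlr2, was last. Between neighbours in this order the difference of the means exceeded the larger SD over the libraries for Cd14 and Tlr1, for Tlr3 and Tlr9 and for Tlr5 and Tlr6. The other neighbours lay within it. The order did not hold in every group: in knock-in female normal colon the mean was 28.1 CPM per kilobase for Tlr1 and 16.3 for Cd14. Tlr1 also exceeded Cd14 per length in replicate 3 of wild-type male and of wild-type female normal colon. All other values are CPM of a single gene and serve to compare that gene between libraries.

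**Figure D1:**
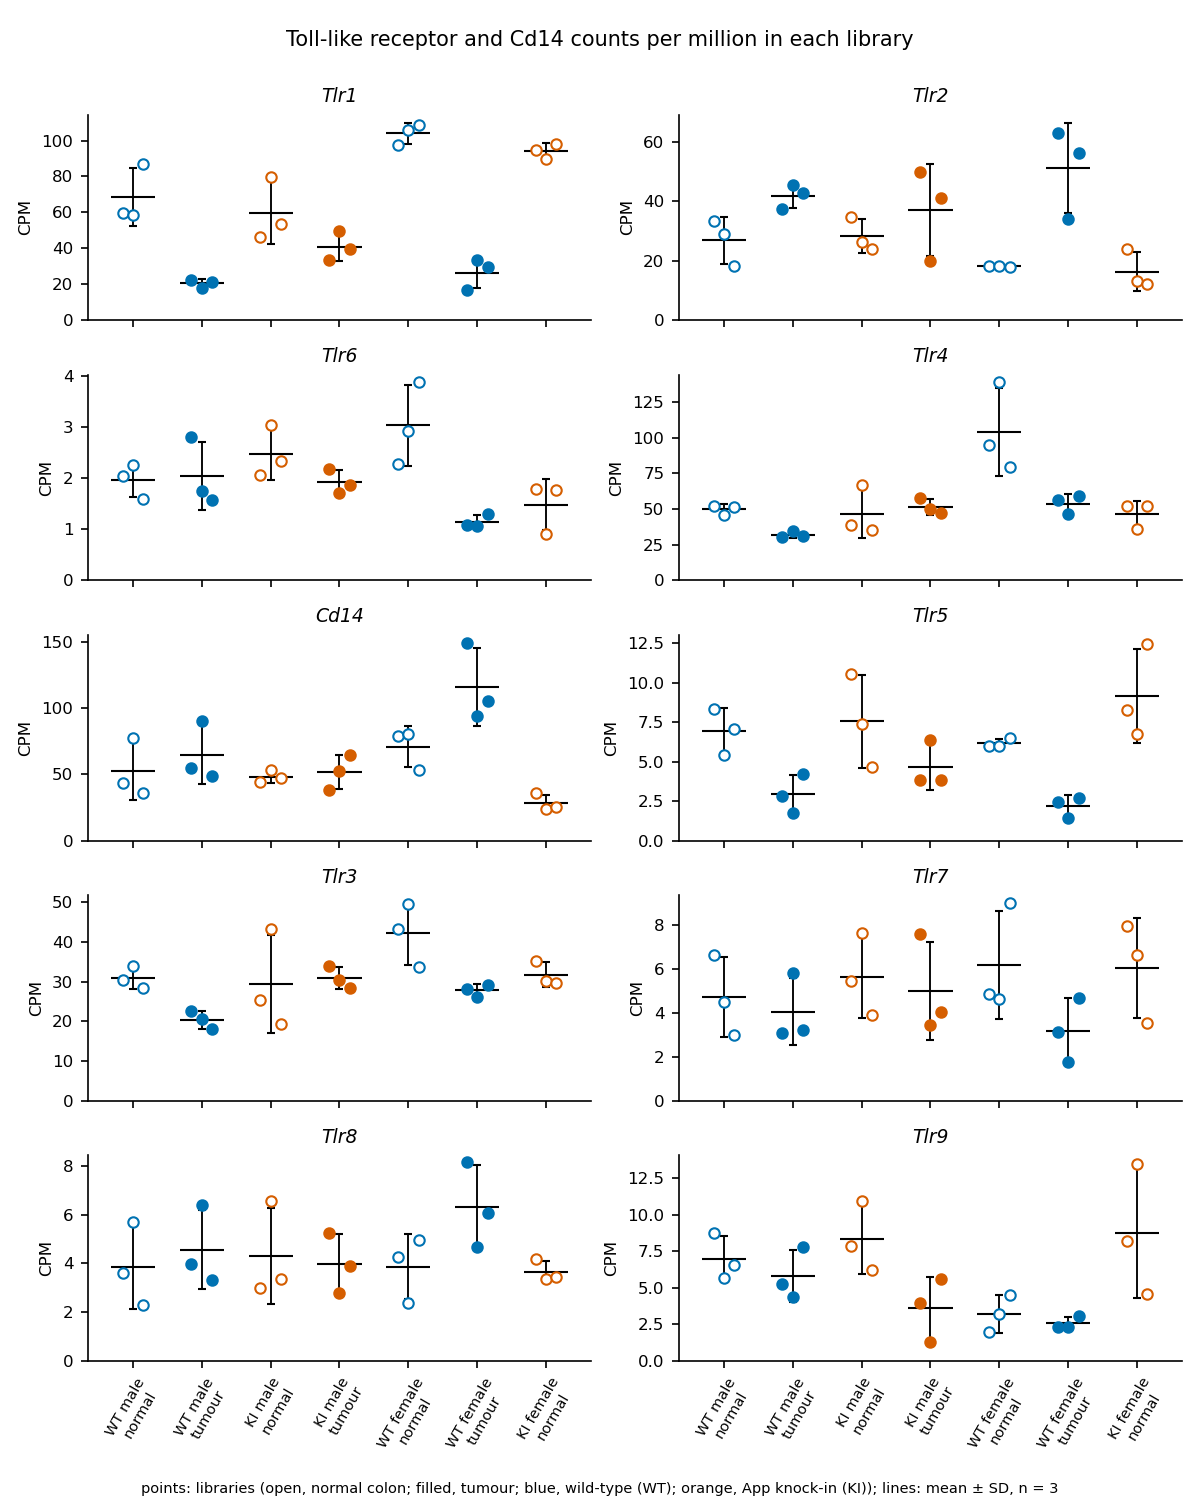
CPM of the 10 genes (y axes, linear from 0) in each of the 21 libraries, by group (x axes; WT, wild-type; KI, App NL-G-F knock-in); points are libraries, black lines the mean and SD of 3. Tlr1 lies between 18.04 and 22.5 CPM in wild-type male tumours and at 58.7 CPM or more in the wild-type male normal libraries, and Tlr4 is at 79.3 CPM or more only in wild-type female normal colon.

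Tlr1, which pairs with Tlr2 to bind triacylated bacterial lipopeptides, varied most between groups, with group means from 20.5 ± 2.25 CPM (SD, n = 3) to 104 ± 5.76 CPM. In wild-type males the normal libraries had 59.9, 58.7 and 87.0 CPM and the tumours 22.5, 18.04 and 20.998 CPM in replicates 1, 2 and 3. In wild-type females normal colon had 97.6, 106 and 109 CPM and tumours 16.7, 33.3 and 29.4 CPM. No tumour library of either sex reached the lowest normal library of that sex. The log2 fold change, tumour minus normal, was -1.72 ± 0.24 (SE) in males (edgeR adjusted p = 4.15e-05) and -1.97 ± 0.23 in females (edgeR adjusted p = 3.15e-06). Both calls held under all 17 other settings and left-out libraries tried for each, with male values from -1.83 to -1.52 and female values from -2.26 to -1.73.

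In knock-in males Tlr1 was at 46.4, 79.6 and 53.6 CPM in normal colon and 33.7, 49.9 and 39.4 CPM in tumours, and the groups overlapped. The difference of -0.55 ± 0.22 (SE) did not pass the test (edgeR adjusted p = 0.0874). It did pass without replicate 1 of the knock-in normal males (-0.74, edgeR adjusted p = 0.0375) and with offsets for GC content and length (-0.74, edgeR adjusted p = 0.0250). Knock-in male tumours had more Tlr1 than wild-type male tumours, without overlap, by 0.99 ± 0.23 (SE) on the log2 scale (1.98-fold, edgeR adjusted p = 0.0140). Without replicate 2 of the knock-in tumours, the highest of its group, this was 0.80 (edgeR adjusted p = 0.0753). The test of the difference itself, the tumour effect in knock-in minus that in wild-type males, gave 1.18 ± 0.32 (SE), with edgeR adjusted p = 0.0592, so the smaller tumour difference of knock-in males was not past the threshold. With DESeq2 it was (1.18, adjusted p = 0.0157), and likewise with limma voom (1.22, adjusted p = 0.0221).

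In normal colon Tlr1 had its highest levels in females, where the knock-in libraries were at 94.5, 89.6 and 98.3 CPM (replicates 1, a and b). The lowest female normal library of each genotype was above the highest male one of that genotype. Female minus male, Tlr1 differed by 0.60 ± 0.22 (SE) in wild-type and 0.65 ± 0.22 in knock-in normal colon, neither past the threshold (edgeR adjusted p = 0.0716 and 0.164). Leaving out replicate 3 of the wild-type normal males, or replicate 2 of the knock-in normal males, each the highest of its group, brought these to 0.81 (edgeR adjusted p = 0.0264) and 0.91 (edgeR adjusted p = 0.0328). From high to low, the group means were wild-type female normal, knock-in female normal, wild-type male normal, knock-in male normal, knock-in male tumour, wild-type female tumour and wild-type male tumour. Of these 7 groups, the second did not overlap with the third and the fifth did not overlap with the sixth; the other neighbours overlapped.

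Tlr2, the shared partner of Tlr1 and Tlr6, had its 3 highest group means in the tumour groups. In wild-type females it was 18.3, 18.1 and 17.96 CPM in normal colon, a narrow spread, and 63.2, 34.2 and 56.4 CPM in tumours. All tumour libraries were above all normal ones, and the log2 fold change was 1.50 ± 0.33 (SE), 2.82-fold (edgeR adjusted p = 0.00106), a call that held under each of the other settings and without any 1 library. In wild-type males the values were 33.4, 29.1 and 18.2 CPM in normal colon and 37.3, 45.4 and 42.8 CPM in tumours. These did not overlap either, but the difference of 0.63 ± 0.32 (SE) missed the threshold (edgeR adjusted p = 0.135). In knock-in males, normal colon had 34.7, 26.2 and 24.0 CPM and tumours 49.9, 20.1 and 41.3 CPM, where tumour replicate 2 lay below every normal library and the other 2 tumours above (edgeR log2 fold change 0.39 ± 0.32, adjusted p = 0.392). Knock-in female normal colon had the lowest mean, with 23.9, 13.3 and 12.0 CPM.

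**Figure D2:**
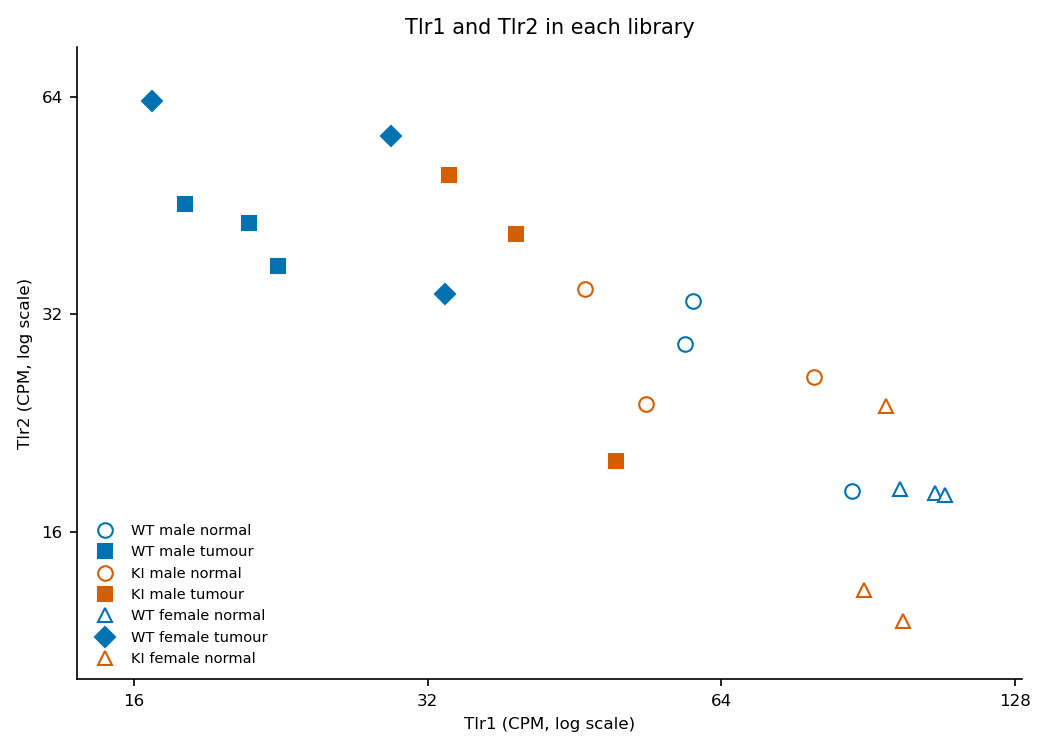
CPM of Tlr1 (x axis, log scale) against CPM of Tlr2 (y axis, log scale) in the 21 libraries; blue, wild-type; orange, App NL-G-F knock-in; open, normal colon; filled, tumour. Wild-type tumours sit at the upper left and female normal colon at the lower right, with Pearson r of -0.87 between the log2 values.

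Across the 21 libraries Tlr1 and Tlr2 ran against each other, with Pearson r of -0.87 for log2 CPM and -0.66 for deviations from the group means. These points share group, depth and scaling, and the r is given as a description. Set per length, the ratio of Tlr2 to Tlr1 was 0.184, 0.190 and 0.208 in the 3 wild-type female normal libraries (lowest, median and highest) and 1.14, 2.13 and 4.20 in the tumours. In wild-type males it was 0.232, 0.549 and 0.619 in normal colon and 1.84, 2.26 and 2.79 in tumours. So, in the counts as deposited, Tlr1 RNA exceeded Tlr2 RNA per length in every wild-type normal library, and Tlr2 exceeded Tlr1 in every wild-type tumour. How reads shared by Tlr1 and Tlr6 were counted is not given, which leaves the lowest tumour ratio, 1.14, uncertain. Knock-in males had ratios of 0.365, 0.498 and 0.829 in normal colon and 0.446, 1.16 and 1.64 in tumours, which overlap, and knock-in female normal colon had 0.136, 0.164 and 0.281.

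Tlr6, which pairs with Tlr2 to bind diacylated lipopeptides, was the rarest gene of the set, at 0.899 to 3.87 CPM over all libraries. In wild-type females it was 2.28, 2.93 and 3.87 CPM in normal colon and 1.09, 1.05 and 1.30 CPM in tumours, without overlap. It fell 2.57-fold there (-1.36 ± 0.35 SE on the log2 scale, edgeR adjusted p = 0.00314). In wild-type males the values overlapped, with 2.03, 2.25 and 1.59 CPM in normal colon and 2.81, 1.75 and 1.57 CPM in tumours (0.09 ± 0.33 SE, edgeR adjusted p = 0.861). The difference between the sexes in this tumour effect was -1.45 ± 0.48 (SE, edgeR adjusted p = 0.152), not past the threshold. Knock-in female normal colon, at 1.79, 0.899 and 1.76 CPM, was below the wild-type one by -0.97 ± 0.33 (SE, edgeR adjusted p = 0.0490). That call was lost without any 1 of the 6 libraries (adjusted p of 0.0554 to 0.203) and in each of the 8 other settings in which it could be tested (0.0517 to 0.0985), and rests on 8 to 54 counts per library.

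Tlr4, the signalling receptor for lipopolysaccharide (chr4:66827584-66930284, plus strand), fell in wild-type tumours of both sexes. Wild-type males had 52.2, 45.9 and 51.4 CPM in normal colon and 30.3, 34.3 and 30.8 CPM in tumours, and wild-type females 94.6, 139 and 79.3 CPM and 56.5, 46.3 and 58.8 CPM. The tumour libraries lay below the normal ones in both sexes, and wild-type female normal colon lay above every other library of the series. The log2 fold change was -0.65 ± 0.23 (SE) in males (edgeR adjusted p = 0.0304) and -0.95 ± 0.22 in females (edgeR adjusted p = 0.00166). The female call held in every setting, whereas the male call was lost without replicate 1 or 3 of the normal or of the tumour libraries, with adjusted p of 0.0640 to 0.0833 at log2 values of -0.64 to -0.63.

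In knock-in males Tlr4 was 38.8, 66.7 and 35.1 CPM in normal colon and 57.9, 49.9 and 47.1 CPM in tumours, overlapping, and the difference was 0.14 ± 0.22 (SE, edgeR adjusted p = 0.685). The 3 knock-in tumours were above the 3 wild-type male tumours, by 0.71 ± 0.23 (SE, 1.63-fold, edgeR adjusted p = 0.0439). This is a call close to the threshold: it was lost without any 1 of the 6 libraries (adjusted p of 0.0501 to 0.141) and in 6 of 11 other settings. With offsets for GC content and length the difference was 0.38 (edgeR adjusted p = 0.162). The tumour effect in knock-in minus wild-type males was 0.79 ± 0.31 (SE, edgeR adjusted p = 0.136).

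Normal colon of females separated the genotypes for Tlr4. Knock-in female normal colon had 52.1, 35.7 and 51.9 CPM in replicates 1, a and b, all below the 3 wild-type female normal libraries. The log2 fold change, knock-in minus wild-type, was -1.16 ± 0.22 (SE), 2.23-fold lower (edgeR adjusted p = 0.00231), with values of -1.32 to -0.85 over all settings and left-out libraries, each past the threshold. In males the same contrast was -0.09 ± 0.22 (SE, edgeR adjusted p = 1.000). The difference between the sexes in this genotype effect was -1.07 ± 0.31 (SE), with edgeR adjusted p = 0.0744; DESeq2 gave -1.05 (adjusted p = 0.0340). In wild-type normal colon Tlr4 was higher in females than in males by 1.06 ± 0.22 (SE, 2.09-fold, edgeR adjusted p = 0.00376), and in knock-in normal colon the sexes overlapped (-0.01 ± 0.22 SE, edgeR adjusted p = 0.995). These contrasts share the wild-type female normal libraries, the group with the highest mean sum of colon epithelium markers.

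Cd14, the co-receptor that binds lipopolysaccharide and lipopeptides and passes them to Tlr4 and Tlr2, did not follow Tlr4 in tumours. Wild-type females had 78.8, 80.7 and 53.1 CPM in normal colon and 149, 93.8 and 105 CPM in tumours, the latter above every normal library of the series. The difference of 0.71 ± 0.29 (SE) was just outside the threshold (edgeR adjusted p = 0.0522), and past it in 8 of 17 alternatives, with adjusted p of 0.0180 to 0.0469 in those. Wild-type males had 43.7, 77.1 and 36.2 CPM in normal colon and 54.9, 90.5 and 49.1 CPM in tumours, which overlapped (edgeR log2 fold change 0.29 ± 0.29, adjusted p = 0.467). Knock-in males had 44.4, 53.0 and 47.0 CPM and 38.5, 52.6 and 64.5 CPM, also overlapping (0.10 ± 0.29 SE, edgeR adjusted p = 0.826).

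The lowest Cd14 levels were in knock-in female normal colon, with 35.7, 24.2 and 25.0 CPM, below every library of the other 6 groups. Against wild-type female normal colon it was lower by -1.32 ± 0.30 (SE), 2.50-fold (edgeR adjusted p = 0.00699), and this held in every setting. The genotype effect in females minus that in males was -1.20 ± 0.41 (SE, edgeR adjusted p = 0.132), past the threshold only without replicate 2 of the wild-type normal males (-1.58, edgeR adjusted p = 0.0317). Per length, Cd14 RNA exceeded Tlr4 RNA in every library, by a ratio of 1.86, 2.15 and 2.67 in wild-type female normal colon and 5.73, 6.50 and 8.46 in the tumours of that sex (lowest, median and highest). In wild-type males it was 2.26, 2.69 and 5.38 in normal colon and 5.12, 5.81 and 8.45 in tumours. Knock-in males had ratios of 2.55, 3.67 and 4.30 and 2.13, 3.38 and 4.39. Ly96, without which Tlr4 does not bind lipopolysaccharide, did not pass the test in the 3 tumour comparisons: the log2 fold change was 0.02 ± 0.27 (SE), adjusted p = 0.961 in males of the wild type, 0.25 ± 0.26 (SE), adjusted p = 0.523 in those of the knock-in and -0.39 ± 0.27 (SE), adjusted p = 0.241 in females of the wild type, each by edgeR.

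Tlr5, the flagellin receptor (chr1:182954788-182976044, plus strand), fell in both wild-type tumour groups from a low level. In wild-type males it was 8.31, 5.39 and 7.06 CPM in normal colon and 2.81, 1.75 and 4.24 CPM in tumours. The corresponding values of wild-type females were 5.96, 5.99 and 6.50 CPM and 2.44, 1.40 and 2.72 CPM. Normal and tumour libraries did not overlap in either sex. The change was -1.17 ± 0.36 (SE) in males (edgeR adjusted p = 0.0155) and -1.48 ± 0.37 in females (edgeR adjusted p = 0.00275). The female call held throughout, whereas the male call was lost without replicate 1 of the normal libraries (-1.04, edgeR adjusted p = 0.0531) and without replicate 1 or 2 of the tumours (-1.12 and -0.98, edgeR adjusted p = 0.0569 and 0.0594). In knock-in males normal colon had 10.6, 7.41 and 4.67 CPM and tumours 3.81, 6.39 and 3.82 CPM, overlapping (-0.68 ± 0.34 SE, edgeR adjusted p = 0.154). The highest Tlr5 library was replicate b of knock-in female normal colon, a group with 8.27, 6.74 and 12.5 CPM.

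Tlr3, the receptor for double-stranded RNA (chr8:45395665-45411080, minus strand), had the narrowest spread of the set's 5 most abundant genes, 17.96 to 49.6 CPM. Wild-type males had 30.3, 33.9 and 28.4 CPM in normal colon and 22.5, 20.7 and 17.96 CPM in tumours, and wild-type females 43.2, 49.6 and 33.8 CPM and 28.3, 26.1 and 29.1 CPM. Tumours were below normal colon without overlap in both, by -0.60 ± 0.21 (SE, adjusted p = 0.0356) in males and -0.60 ± 0.21 (SE, adjusted p = 0.0239) in females by edgeR. These small changes lay near the threshold. The male call was lost without 5 of the 6 libraries taken singly, all but tumour replicate 1, and with library totals as the scale (adjusted p of 0.0521 to 0.130). The female call was lost without replicate 1 or 2 of either group, with library totals and with the late libraries as a covariate (adjusted p of 0.0523 to 0.126). Knock-in males had 25.4, 43.2 and 19.4 CPM and 34.0, 30.5 and 28.4 CPM, overlapping (0.07 ± 0.21 SE, edgeR adjusted p = 0.830). Knock-in male tumours were above wild-type male tumours in each library, by 0.60 ± 0.21 (SE), which missed the threshold (edgeR adjusted p = 0.0628). Tlr3 and Tlr4 had the highest positive r among the pairs of the set, 0.87 over the 21 libraries and 0.79 within groups.

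Tlr9, the receptor for unmethylated CpG DNA (chr9:106222598-106226883, plus strand), differed most clearly with genotype in female normal colon. Wild-type libraries had 1.94, 3.21 and 4.49 CPM and knock-in libraries 8.21, 13.5 and 4.59 CPM, without overlap although the lowest knock-in value is close to the highest wild-type one. The log2 fold change was 1.49 ± 0.46 (SE), 2.81-fold higher in knock-in females (edgeR adjusted p = 0.0343). Without replicate a of the knock-in group it was 1.05 (edgeR adjusted p = 0.196), and the call was also lost without replicate 1 of either group, without replicate 2 of the wild-type group and with GC content and length offsets (1.23, edgeR adjusted p = 0.0879). In knock-in males Tlr9 was 7.85, 10.95 and 6.22 CPM in normal colon and 3.95, 1.30 and 5.58 CPM in tumours, the single gene of the set without overlap there. Its difference of -1.23 ± 0.44 (SE) missed the threshold (edgeR adjusted p = 0.0561). It was past it with DESeq2 (-1.23, adjusted p = 0.0338), with the late libraries as a covariate (-1.54, edgeR adjusted p = 0.0339) and without replicate 3 of the knock-in tumours (-1.68, edgeR adjusted p = 0.0302).

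Wild-type males had Tlr9 at 8.74, 5.69 and 6.57 CPM in normal colon and 5.26, 4.37 and 7.83 CPM in tumours, and wild-type female tumours at 2.31, 2.34 and 3.04 CPM. Neither wild-type tumour difference passed the test (-0.25 ± 0.44 in males and -0.27 ± 0.49 in females, SE, edgeR adjusted p = 0.700 and 0.677). The sum of 5 B cell markers (Ms4a1, Cd79a, Cd79b, Pax5 and Cr2) moved with Tlr9 in part of the groups. It was 35.8 to 131 CPM in knock-in male normal colon and 4.44 to 32.5 CPM in the tumours of that group, where 3 of the 5 markers fell. In knock-in female normal colon it was 45.9 to 96.3 CPM and in wild-type female normal colon 9.48 to 56.1 CPM, ranges that overlap. In wild-type female tumours it was 3.91 to 4.21 CPM, with 4 of 5 markers lower than in normal colon. The part of B cells in the Tlr9 values was not tested.

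Tlr7 and Tlr8, receptors for single-stranded RNA that lie next to each other on the X chromosome (chrX:167304929-167330558 and chrX:167242696-167264329, minus strand), passed the test in none of the 9 comparisons of groups. Tlr7 ranged over 1.75 to 8.98 CPM, with its lowest mean in wild-type female tumours (3.18 ± 1.46 CPM, SD, n = 3) and its highest in wild-type female normal colon (6.15 ± 2.46 CPM). That difference was -0.92 ± 0.45 (SE, edgeR adjusted p = 0.0959), and it was past the threshold only without tumour replicate 3 (-1.32, edgeR adjusted p = 0.0465). Tlr8 ranged over 2.29 to 8.15 CPM and was highest in wild-type female tumours (6.31 ± 1.75 CPM) and lowest in knock-in female normal colon (3.66 ± 0.439 CPM). In wild-type females its tumour difference was 0.70 ± 0.39 (SE, edgeR adjusted p = 0.148). Their counts were 15 to 140 and 17 to 104 per library, and their SE in these comparisons was 0.38 to 0.46 on the log2 scale, larger than that of Tlr3. Whether the counts or the spread between libraries set these SE was not tested.

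Read against all tested genes, the number of receptors that changed in tumours was near the background. In wild-type males 4 of 10 passed the test, all lower, where 35.7% of the 15936 tested genes passed and 19.3% were lower. In wild-type females 6 of 10 passed, 1 higher and 5 lower, against 49.1% of tested genes, 25.0% higher and 24.0% lower. In knock-in males 0 of 10 passed by edgeR, with 2 at an unadjusted p under 0.05 and 1 by DESeq2, against 20.4%. That share was 4.72% (724 of 15330 genes) with only the compared groups fitted and 24.0% with DESeq2. The median log2 fold change of the 10 genes was -0.27 in males of the wild type, -0.15 in those of the knock-in and -0.76 in females of the wild type, and that of all tested genes 0.01 in each. Groups did not overlap for 5, 1 and 7 of the 10 genes, against 52.4, 33.6 and 58.4% of tested genes.

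**Figure D3:**
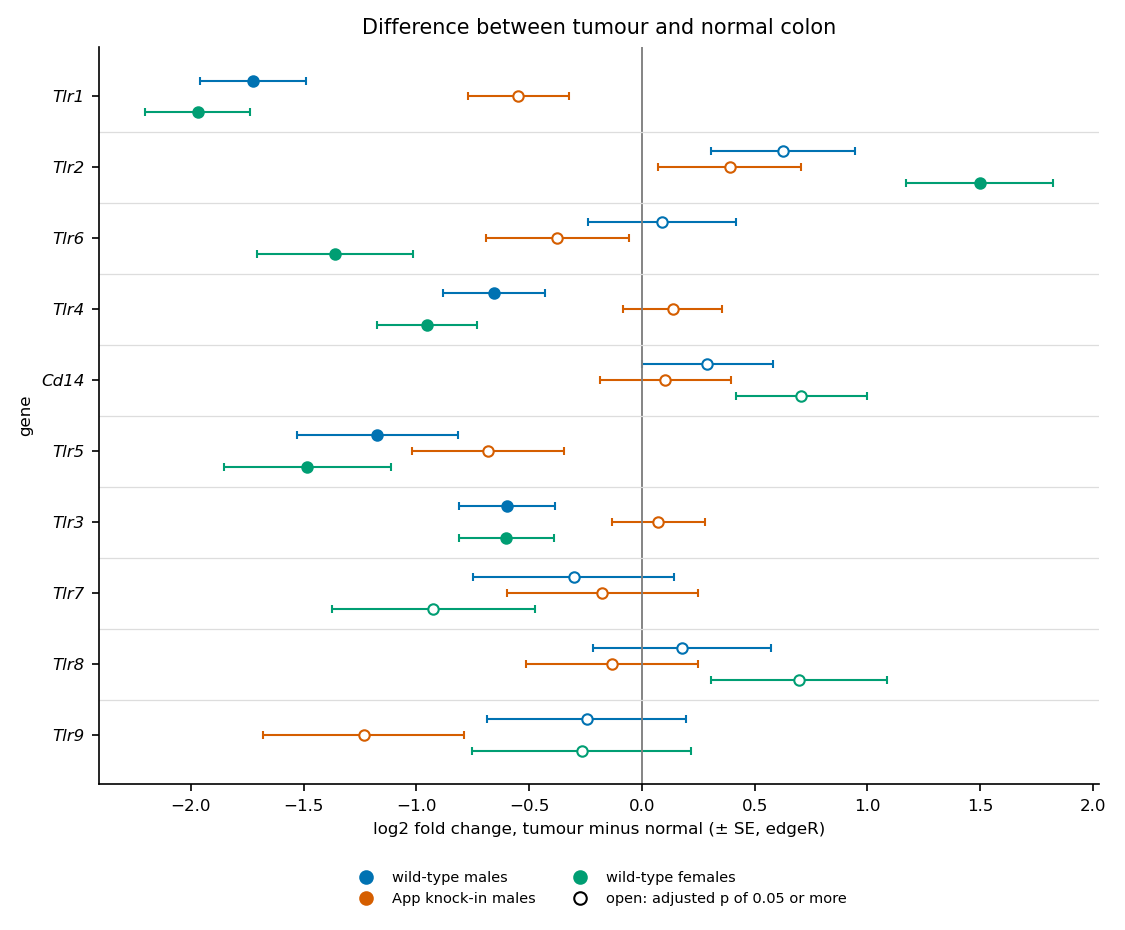
Log2 fold change, tumour minus normal colon (x axis), of each gene (y axis) with its SE from edgeR, in wild-type males, App NL-G-F knock-in males and wild-type females; filled points passed the adjusted p threshold of 0.05. Tlr1 is lowest in both wild-type comparisons, at -1.72 and -1.97, and no knock-in point is filled.

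Between the genotypes, 2 of the 10 genes passed in male tumours, both higher in knock-ins, against 14.5% of tested genes, 9.30% in that direction. In male normal colon 0 of 10 passed by edgeR, with 0 at an unadjusted p under 0.05 and 0 by DESeq2, against 0.0126% of tested genes, which is 2 genes. In female normal colon 4 of 10 passed, Tlr9 higher and Tlr4, Cd14 and Tlr6 lower in knock-ins, against 16.0% of tested genes, 8.97% higher and 7.003% lower. No overlap between groups was found for 3, 0 and 5 of the 10 genes in these comparisons, against 36.4, 7.08 and 37.8% of tested genes. None of the 10 passed the test of the difference in tumour effect between genotypes in males (3 at an unadjusted p under 0.05, 1 by DESeq2; 1.51% of tested genes passed). Without replicate 2 of the knock-in normal males, 3 did: Tlr1 at 1.41, Tlr4 at 1.11 and Tlr3 at 1.04 (edgeR adjusted p = 0.0104, 0.0162 and 0.0107). The share of all tested genes that passed without that library is not given here, so these 3 calls cannot be set against a background. That library was the highest of its group for these 3 genes. Its B cell marker sum was 131 CPM against 53.1 and 35.8 CPM in the other 2, and its macrophage marker sum of 301 CPM lay between their 228 and 306 CPM. The part of cell content in these values was not tested.

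Between the sexes, 1 of 10 passed in wild-type normal colon, Tlr4, higher in females, against 15.9% of tested genes, 5.74% in that direction. In wild-type tumours 0 of 10 passed by edgeR, with 4 at an unadjusted p under 0.05 and 1 by DESeq2, against 0.860% of tested genes. Those 4 were Tlr4 (0.77 ± 0.23 SE, edgeR adjusted p = 0.0801) and Cd14 (0.86 ± 0.29 SE, edgeR adjusted p = 0.118), with higher values in females, and Tlr6 (-0.86 ± 0.35 SE, edgeR adjusted p = 0.178) and Tlr9 (-1.20 ± 0.47 SE, edgeR adjusted p = 0.161), with lower ones. In knock-in normal colon 0 of 10 passed by edgeR, with 4 at an unadjusted p under 0.05 and 0 by DESeq2, against 0.584%. Groups did not overlap for 5, 4 and 4 of the 10 genes in wild-type tumours, wild-type normal and knock-in normal colon, against 31.2, 34.2 and 19.7% of tested genes. No gene of the set passed the test of the tumour effect between sexes in wild-type mice (1 at an unadjusted p under 0.05, 0 by DESeq2; 1.12% of tested genes) or of the genotype effect between sexes in normal colon (3 at an unadjusted p under 0.05, 1 by DESeq2; 2.54%).

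**Figure D4:**
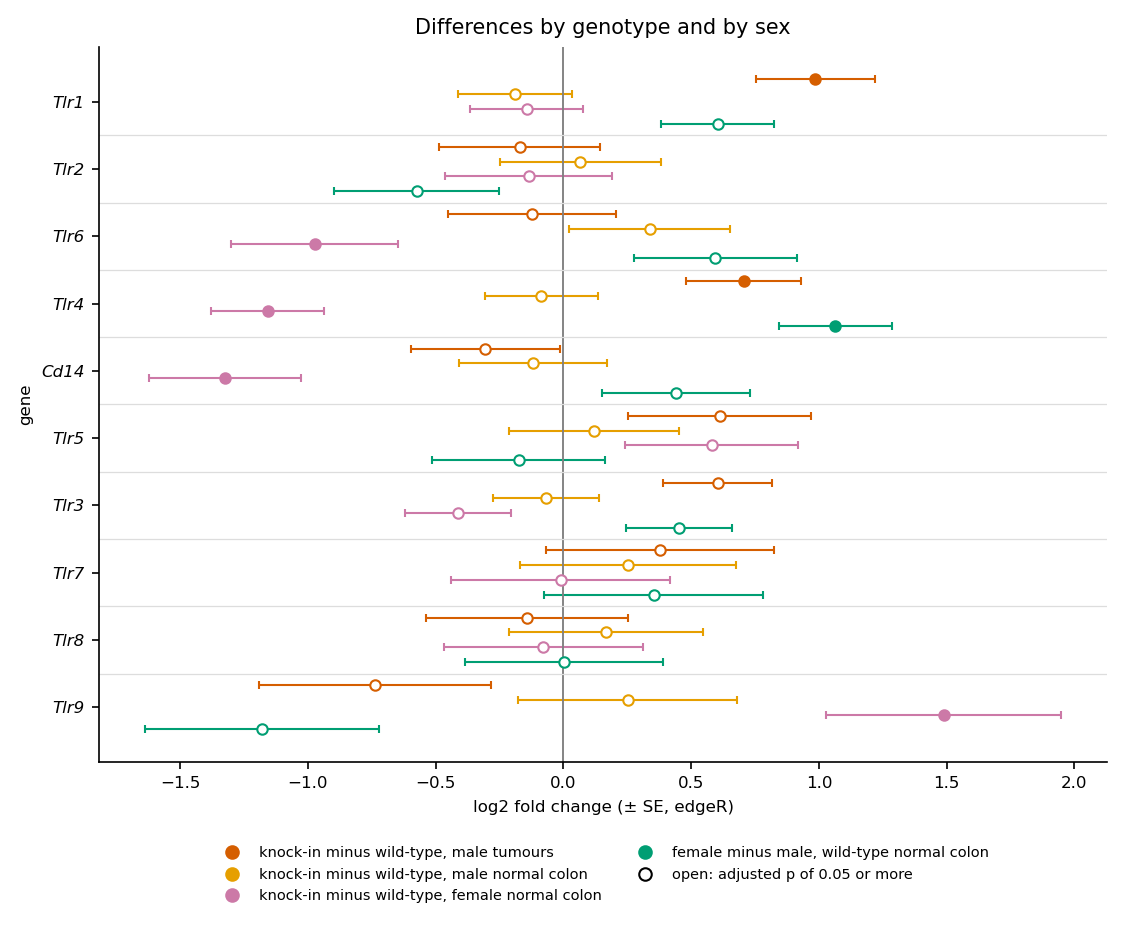
Log2 fold change (x axis) of each gene (y axis) with its SE from edgeR, between App NL-G-F knock-in and wild-type mice in male tumours, male normal colon and female normal colon, and between the sexes in wild-type normal colon; filled points passed the adjusted p threshold of 0.05. Tlr4 is filled on the right in male tumours (0.71) and in the sex contrast (1.06) and on the left in female normal colon (-1.16).

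The rest of the pathway was read from lists of co-receptors and trafficking proteins, adaptors and kinases, transcription factors, inhibitors and induced genes. Among 9 co-receptors and trafficking proteins, 1 rose and 1 fell in tumours of wild-type males and of wild-type females, and 2 fell in those of knock-in males. Of all tested genes 35.7% passed in wild-type males, 49.1% in wild-type females and 20.4% in knock-in males. The gene that fell in both wild-type comparisons was Cd36, a lipid scavenger receptor that works with Tlr2 and Tlr6, at 3.98 ± 3.01 CPM against 19.9 ± 11.5 CPM in females (-2.29 ± 0.47 (SE), adjusted p = 0.000637, edgeR) and 6.75 ± 3.36 CPM against 17.3 ± 5.93 CPM in males (-1.46 ± 0.45 (SE), adjusted p = 0.0193, edgeR), tumour first. Cnpy4, a chaperone-related protein of receptor trafficking, rose in both. In wild-type males the Cd36 and Cnpy4 calls were each lost without 3 of the 6 libraries taken singly. The Cnpy4 call of wild-type males was also lost in 1 of 11 other settings. In knock-in males Unc93b1, which carries the nucleic-acid receptors to endosomes, fell from 70.9 ± 6.97 to 43.1 ± 11.5 CPM (-0.72 ± 0.16 (SE), adjusted p = 0.00588, edgeR), as did the chaperone Cnpy3 (-0.42 ± 0.14 (SE), adjusted p = 0.0432, edgeR), a call that was lost without 5 of the 6 libraries and in 7 of 11 other settings. In female normal colon Hsp90b1, the chaperone gp96 that most of these receptors need to fold, was lower in knock-ins (-1.14 ± 0.24 (SE), adjusted p = 0.00444, edgeR), while Unc93b1 was higher (0.51 ± 0.16 (SE), adjusted p = 0.0354, edgeR; lost without 5 of the 6 libraries). The median of the list was 0.02, -0.13 and -0.12 in the tumour comparisons of wild-type males, knock-in males and wild-type females, against 0.01 over all tested genes in each.

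Of 21 adaptors and kinases, 5 rose and 1 fell in tumours of wild-type males, 8 rose and 2 fell in those of wild-type females, and 4 rose and 2 fell in those of knock-in males, against 35.7, 49.1 and 20.4% of all tested genes called in these comparisons. Pik3ap1, an adaptor that links the receptors to phosphoinositide 3-kinase, rose most, from 5.57 ± 1.25 to 42.8 ± 10.3 CPM in wild-type females (2.94 ± 0.51 (SE), adjusted p = 0.000181, edgeR) and with 1.40 ± 0.47 (SE), adjusted p = 0.0283 (edgeR) in wild-type males. Irak4, the kinase first recruited to Myd88, fell in both (-0.62 ± 0.13 (SE), adjusted p = 0.000660 in females and -0.48 ± 0.13 (SE), adjusted p = 0.00787 in males, edgeR). The TRIF adaptor Ticam1 fell in wild-type females (-0.81 ± 0.18 (SE), adjusted p = 0.000965, edgeR) and in knock-in males (-0.53 ± 0.17 (SE), adjusted p = 0.0388, edgeR). Of the 6 libraries, leaving out 1 at a time lost the Pik3ap1 call of wild-type males in 4 cases and the Ticam1 call of knock-in males in 4, and the latter was also lost in 5 of 11 other settings. Myd88 itself passed in none of the 3 (males: wild-type -0.07 ± 0.12 (SE), adjusted p = 0.712, knock-in 0.02 ± 0.12 (SE), adjusted p = 0.941; wild-type females -0.18 ± 0.12 (SE), adjusted p = 0.238; edgeR). List medians were 0.07, 0.18 and -0.08 in the order wild-type males, knock-in males and wild-type females, against 0.01 over all tested genes.

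Of 9 transcription factors, 3 rose and 1 fell in wild-type male tumours, 5 rose and 2 fell in wild-type female tumours, and 2 fell in knock-in male tumours, against 35.7, 49.1 and 20.4% of all tested genes. Irf8, a factor of macrophages, dendritic cells and B cells, fell in all 3 (-0.90 ± 0.18 (SE), adjusted p = 0.000736, -0.76 ± 0.17 (SE), adjusted p = 0.00695 and -0.75 ± 0.17 (SE), adjusted p = 0.00153 for wild-type males, knock-in males and wild-type females, edgeR). Nfkb2, which encodes the p100 precursor of NF-kappaB, rose in wild-type males from 64.8 ± 5.45 to 97.3 ± 5.06 CPM (0.59 ± 0.13 (SE), adjusted p = 0.00174, edgeR), and Rela, the p65 subunit, likewise (0.58 ± 0.11 (SE), adjusted p = 0.000440, edgeR). For these 2 genes the test of the difference in tumour effect between genotypes was just past the threshold, with -0.86 ± 0.18 (SE), adjusted p = 0.0406 for Nfkb2 and -0.63 ± 0.15 (SE), adjusted p = 0.0465 for Rela (edgeR, knock-in minus wild-type). Both calls were lost with the replicate block (edgeR adjusted p = 0.0548 and 0.0627), with the offsets for GC content and length (-0.43 and -0.21, edgeR adjusted p = 0.180 and 0.413), with the late libraries as covariate, with only the compared groups, and without 7 (Nfkb2) or 9 (Rela) of the 12 libraries taken singly. In tumours of males 4 of the 9 factors were lower in knock-ins than in wild-types. Of all tested genes, 14.5% were called there in either direction, and 9.30% were called higher in knock-ins. The receptors Tlr1 and Tlr4 were higher in the same comparison, and the comparisons named here share libraries. List medians were 0.14, -0.39 and 0.56 in the 3 tumour comparisons.

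Of 10 inhibitors of the pathway, 2 rose and 1 fell in wild-type males, 2 fell in knock-in males, and 1 rose and 2 fell in wild-type females, against 35.7, 20.4 and 49.1% of all tested genes. List medians were 0.28, -0.20 and -0.10. Nfkbie, an inhibitor of NF-kappaB that NF-kappaB itself induces, rose in wild-type females (1.57 ± 0.22 (SE), adjusted p = 1.63e-05, edgeR) and in wild-type males (0.83 ± 0.21 (SE), adjusted p = 0.00543, edgeR). Tnip1, which helps to end NF-kappaB signalling, fell in all 3 tumour comparisons (-0.52 ± 0.17 (SE), adjusted p = 0.0246, -0.78 ± 0.17 (SE), adjusted p = 0.00589 and -0.77 ± 0.17 (SE), adjusted p = 0.00120 for wild-type males, knock-in males and wild-type females, edgeR), though in wild-type males the call was lost without 3 of the 6 libraries taken singly. Sigirr, an inhibitory receptor of the same family, was lower in the normal colon of knock-in females than of wild-type females (-0.52 ± 0.14 (SE), adjusted p = 0.0164, edgeR), a call that was lost without 3 of the 6 libraries taken singly. The difference between the sexes in this genotype effect (-0.78 ± 0.19 (SE), adjusted p = 0.0393, edgeR) was lost without 8 of the 12 libraries and in 3 of 9 other settings.

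The list of induced genes holds cytokines, chemokines and enzymes that the pathway, like other inflammatory signals, switches on; 11 of its 14 members were tested. By edgeR, 9 rose in wild-type male tumours, 8 in wild-type female tumours and 2 in knock-in male tumours, against 35.7, 49.1 and 20.4% of all tested genes called in either direction. The edgeR share in knock-in males was near that of all genes. However, 7 of the 11 had an unadjusted p under 0.05 there, and 5 passed by DESeq2, where 24.0% of all tested genes passed. In wild-type females Lcn2, an iron-binding antimicrobial protein, went from 2.83 ± 2.38 to 180.3 ± 78.0 CPM (6.16 ± 1.12 (SE), adjusted p = 0.000344, edgeR). In wild-type males the neutrophil chemokine Cxcl2 went from 3.02 ± 3.42 to 34.9 ± 36.7 CPM (3.45 ± 1.11 (SE), adjusted p = 0.0246, edgeR), with a wide spread between tumours and a call that was lost without 3 of the 6 libraries taken singly. In knock-in males Ptgs2, the inducible cyclooxygenase, rose from 8.46 ± 3.27 to 52.6 ± 19.3 CPM (2.63 ± 0.53 (SE), adjusted p = 0.00501, edgeR). Tnf was lower in tumours of knock-in males than in those of wild-type males (-1.89 ± 0.54 (SE), adjusted p = 0.0309, edgeR), which was also lost without 3 of 6. The list's median was 2.73 in males of the wild type, 1.99 in those of the knock-in and 4.24 in females of the wild type, against 0.01 for all tested genes. The median of the receptors lay below 0 in the same 3 comparisons. Of the other mouse Toll-like receptors, Tlr11, Tlr12 and Tlr13, only Tlr12 passed a test. It rose in wild-type female tumours from 1.07 ± 0.370 to 3.16 ± 0.797 CPM (1.47 ± 0.49 (SE), adjusted p = 0.0181, edgeR), was higher in knock-in than in wild-type female normal colon (4.38 ± 1.52 CPM against 1.07 ± 0.370 CPM; 1.94 ± 0.48 (SE), adjusted p = 0.0108, edgeR) and lower in wild-type female than male normal colon (1.07 ± 0.370 CPM against 5.26 ± 1.06 CPM; -2.21 ± 0.47 (SE), adjusted p = 0.00455, edgeR). These 3 comparisons share the wild-type female normal libraries, the group with the lowest Tlr12 values of those compared. The Tlr12 call in tumours was lost without 2 of the 6 libraries taken singly and in 1 of 11 other settings. Its call between genotypes was lost without 1 of the 6.

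**Figure D5:**
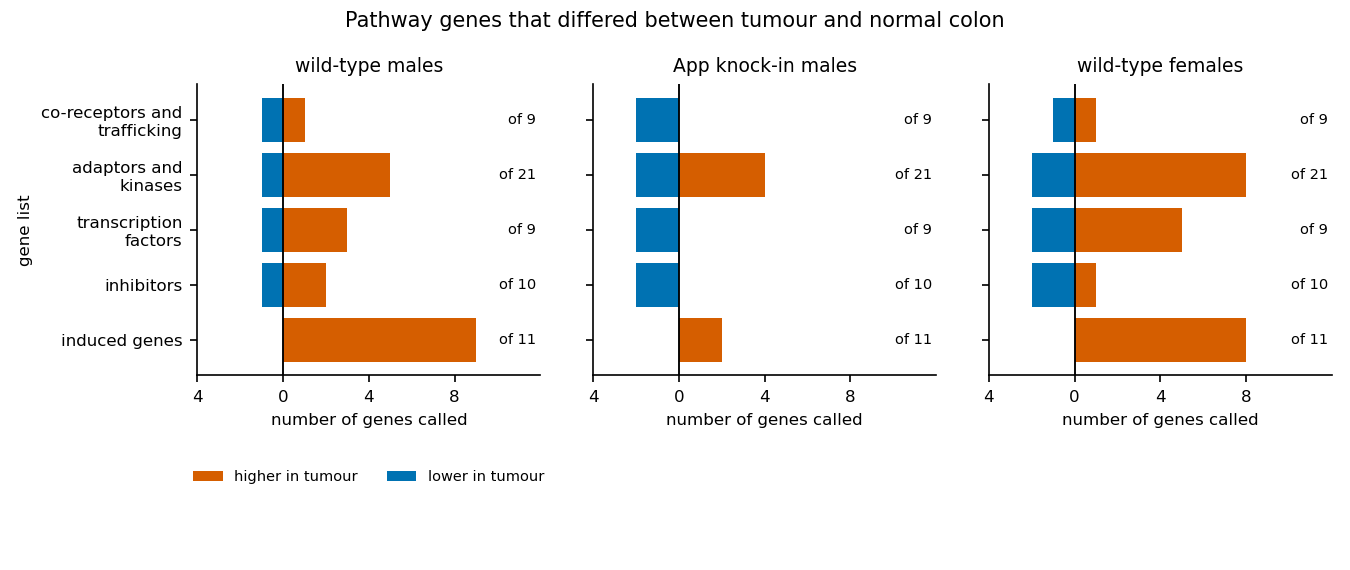
Number of genes (x axis) of 5 pathway lists (y axis) that passed the test as higher (right of 0) or lower (left of 0) in tumour than in normal colon, for wild-type males, App NL-G-F knock-in males and wild-type females; the number tested stands at the right. Of 11 induced genes, 9, 2 and 8 were higher by edgeR, and 5 passed by DESeq2 in knock-in males.

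Markers of the cell types that could carry these receptors moved in the same comparisons, and their part in the receptor differences was not tested. The sum of the 5 colon epithelium markers was 11490 to 23179 CPM in wild-type male normal colon and 3087 to 4090 CPM in tumours, 22812 to 46294 CPM and 2764 to 7427 CPM in wild-type females, and 15061 to 19859 CPM and 4969 to 13006 CPM in knock-in males. Of these markers 4, 5 and 2 fell in these comparisons, and 1 was higher in tumours of knock-in males than in those of wild-type males, as Tlr1 was. In knock-in female normal colon the sum was 10907 to 11998 CPM, below wild-type female normal colon, with 3 of 5 markers lower, as Tlr4 and Cd14 were. Markers of other cell types were higher there: 3 of 8 of smooth muscle (6879 to 9723 CPM against 1984 to 4593 CPM), 3 of 4 of endothelium (99.7 to 108 CPM against 40.6 to 67.2 CPM) and 2 of 5 of fibroblasts (1252 to 1597 CPM against 596 to 759.8 CPM), none with overlap of the sums, and 2 of 9 of macrophages (203 to 258 CPM against 127 to 267 CPM, overlapping). For the general epithelial markers (Epcam, Krt8, Krt18, Krt19, Cdh1 and Vil1) the sum was 8983 to 9990 CPM in wild-type female normal colon and 5429 to 6496 CPM in the tumours. All 8 smooth muscle markers fell in each of the 3 tumour comparisons, in wild-type males from 2862 to 9728 CPM to 192 to 754 CPM.

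Macrophage markers, of which 9 of 10 were in the table, overlapped between tumour and normal colon in all 3 comparisons, with sums of 165 to 271 CPM and 221 to 341 CPM in wild-type males, 228 to 306 CPM and 156 to 238 CPM in males of the knock-in, and 127 to 267 CPM and 191 to 209.6 CPM in females of the wild type. In both wild-type comparisons 2 of the 9 rose and 2 fell. Neutrophil markers (S100a8, S100a9, Csf3r, Cxcr2, Retnlg and Mmp8) had sums of 3.001 to 7.53 CPM in wild-type female normal colon and 55.9 to 167 CPM in the tumours, where 6 of 6 rose, and Tlr2 rose there too. In wild-type males these sums were 1.89 to 24.9 CPM and 33.1 to 65.2 CPM, with 2 of 6 higher, and in knock-in males 9.18 to 21.3 CPM and 34.4 to 54.1 CPM, with 0 of 6 past the threshold by edgeR or DESeq2, 1 at an unadjusted p under 0.05 and a list median of 1.46 on the log2 scale. Dendritic cell markers had sums of 11.6 to 52.7 CPM over all libraries, with 1 of 6 higher in each wild-type tumour comparison and 1 lower in knock-in males. For plasmacytoid dendritic cells, which are known for Tlr7 and Tlr9, 5 genes were listed (Siglech, Bst2, Ccr9, Klk1 and Cox6a2) and 4 tested. Their sums were 256 to 532 CPM in normal colon and 39.0 to 88.8 CPM in tumours of wild-type males, 333 to 596 CPM and 61.6 to 219.9 CPM in males of the knock-in, and 533 to 975 CPM and 36.3 to 73.6 CPM in females of the wild type, without overlap in any of the 3, while Tlr7 and Tlr9 passed the test in none. Of the 4 tested, 1 passed in each wild-type comparison, the kallikrein Klk1, which fell in all 3. In knock-in males 2 passed, Klk1 and Siglech, the latter at 0.276 ± 0.291 CPM in tumours against 1.47 ± 0.525 CPM (-2.34 ± 0.81 (SE), adjusted p = 0.0491, edgeR). Siglech was thus a small part of the sums there, and the sums do not measure the number of these cells. Of all marker lists named here, Cox6a2 was the only marker at 0 in all libraries of a group, the wild-type female tumours. Fibroblast marker sums were 596 to 759.8 CPM in wild-type female normal colon and 1079 to 1845 CPM in the tumours, and endothelial sums 40.6 to 67.2 CPM and 65.9 to 134 CPM. In wild-type males both overlapped, with fibroblast sums of 1366 to 1556 CPM and 1354 to 1633 CPM and endothelial sums of 88.7 to 130 CPM and 113 to 143 CPM. In knock-in males fibroblast sums overlapped (1347 to 2064 CPM and 1627 to 2528 CPM), and endothelial sums did not (101 to 117 CPM and 123 to 161 CPM).

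Of the genes with a mean of at least 5 CPM, those whose log2 CPM followed a receptor most closely over the 21 libraries differed from receptor to receptor. For Tlr1 they were Cds1 (Pearson r 0.985), Tmem45b (0.984) and Cnnm4 (0.983), and for Tlr2 Ddx58 (0.929), Slc18a1 (0.923) and Sbspon (0.921). Tlr4 was followed by Cd38 (0.952), Zfp160 (0.948) and Scfd1 (0.942), and Tlr3 by Jak1 (0.938), Erap1 (0.932) and Il13ra1 (0.923). Cd14 was nearest to Ssr2 (0.933), Hyou1 (0.875) and Steap4 (0.867), of which Ssr2 and Hyou1 encode proteins of the endoplasmic reticulum. Tlr9 was nearest to H2-Eb1 (0.919), Wdfy4 (0.916) and Ciita (0.899), of which H2-Eb1 and Ciita belong to MHC class II antigen presentation. Tlr5 was nearest to Mamdc2 (0.923), Tlr7 to Gng2 (0.800) and Tlr8 to Lyz2 (0.783), the lysozyme of myeloid cells, and the highest r for Tlr6, 0.641 with Sema4b, was the lowest of the set. About 12110 genes were ranked for each, the libraries share groups and scaling, and the r values are descriptions of these libraries.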

How the data were processed

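Per the labels' protocols, ribosomal RNA was removed from total colon RNA enzymatically, cDNA was primed with random hexamers, and libraries were run on a NovaSeq. The authors deposited raw counts per gene for 21 libraries; the submitters' processing notes name Trimmomatic, HISAT2, featureCounts, DESeq2 and mm10, without roles or versions, and the annotation, the use of strand and the treatment of reads that match several places are not given in the sources used here. In the header of the deposited counts, 2 columns of knock-in female normal colon share a name, so they were used as replicates a and b without a number. A second deposited table with the authors' own comparisons was not used.

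Differences were tested with edgeR's quasi-likelihood F test (edgeR 4.0.16, R 4.3.3) on the deposited counts (two-sided; TMM scaling; genes kept by filterByExpr; robust dispersions; a coefficient for each group), fitted to all 21 libraries together. P-values of 9 comparisons of groups and 3 interactions were adjusted by Benjamini-Hochberg over the 15936 tested genes of each, with a threshold of 0.05. An SE is the log2 fold change divided by the root of F. CPM use TMM-scaled totals, and log2 CPM for correlations a prior count of 2. The method was tested on simulated data.

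All 10 genes are described whatever their values. Of each pathway list, at most 2 higher and 2 lower genes are named in a comparison, those with the largest change past the threshold and a mean of at least 50 counts in a group; Ly96, Myd88, Siglech and Klk1 are named outside this rule and were chosen after their values were seen. The genes most like a receptor are the 3 with the highest r. The members and lists were chosen with earlier results of these data known; 1 marker of the colon epithelium list and 1 of the B cell list are not reported here. Gene positions are those of GENCODE M21 on GRCm38, and promoter sequences those of RefSeq on GRCm38.p6; 7 of the 10 genes are shown or searched there.

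Replicate numbers are shared between groups, but no label says what they pair. Among comparisons with 3 pairs, deviations from the group means correlated above 0.1 in every pair only between tumour and normal colon of wild-type males (0.17 to 0.21). The edgeR test described above did not use the numbers as pairs. A replicate block, with terms for the numbers shared by all groups except knock-in female normal colon, left the same number of members past the threshold there, 4. Because its terms are shared between groups, this block does not model pairs within wild-type males alone. The single pair between female and male knock-in normal colon had 0.34, although the sexes differ, so such an r does not establish pairing. Alternatives were DESeq2 1.42.0, limma 3.58.1 (voom), other scalings and filters, the compared groups alone, a replicate block, a covariate for late libraries and leaving out each library; offsets for GC content and length, known for 95.3% of genes, were added after seeing the data.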

Additional observations from a re-analysis of the deposited data

How the results depend on the processing

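The number of members past the threshold was recomputed under 11 other settings, fewer where replicate numbers were missing, and without each library. For the fits without 1 library, the share of all tested genes that passed is not given here. For 51 values of single members a call was lost and for 39 a call was gained; no called member changed direction, whereas 136 values with no call in either setting changed sign. Without 1 library, the number ran from 1 to 3 in wild-type male tumours (4 with all libraries; 1 without normal replicate 1, 2 without normal replicate 3 or any 1 tumour), 0 to 1 in knock-in male tumours (0; 1 without normal replicate 1 or tumour replicate 3), and 5 to 7 in wild-type female tumours (6). Between genotypes it ran from 0 to 1 in male tumours (2; 0 without knock-in replicate 2), 0 to 0 in male normal colon (0) and 2 to 3 in female normal colon (4; 2 without replicate 1 of either group, wild-type replicate 2 or knock-in replicate a). Between sexes it ran from 0 to 0 in wild-type tumours (0), 1 to 2 in wild-type normal colon (1; 2 without male replicate 3) and 0 to 1 in knock-in normal colon (0; 1 without male replicate 2). For the interactions it ran from 0 to 3 for genotype on the tumour effect (0; 3 without replicate 2 of the knock-in normal males), 0 to 0 for sex on the tumour effect (0) and 0 to 1 for sex on the genotype effect in normal colon (0; 1 without replicate 2 of the wild-type or replicate 3 of the knock-in normal males, or replicate 3 of the wild-type normal females).

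Of the other settings, a minimum mean of 50 counts, DESeq2, the late libraries as covariate, GC content and length offsets, the replicate block, and the block with these offsets each gave 1 member in knock-in male tumours. The number was 1 between genotypes in male tumours with DESeq2 size factors, no filter, the late covariate, the offsets, the replicate block, and the block with the offsets, and 2 in female normal colon with the offsets. In wild-type tumours between sexes it was 1 with DESeq2, 3 with limma voom and 2 with the compared groups alone, and with limma voom it was 4 in wild-type and 1 in knock-in normal colon. The interaction of genotype and tumour gave 1 with DESeq2 and 1 with limma voom, and that of genotype and sex 1 with DESeq2. The cause was not tested. The replicate block changed no other number of members by more than 1.5 times. Same-numbered libraries of the remaining comparisons did not correlate above 0.1 in all pairs, or had 1 pair, so that they share only a number there. Over all tested genes, the number called in the tumour comparison of knock-in males was 3246 and ran from 724 to 3829 with the setting, between genotypes in male tumours 2315 (728 to 3011), between sexes in wild-type tumours 137 (29 to 2916), in wild-type normal colon 2534 (1623 to 5317) and in knock-in normal colon 93 (17 to 666), between genotypes in male normal colon 2 (0 to 6) and in female normal colon 2545 (2198 to 4457), and for the interactions 240 (0 to 1326), 179 (23 to 1445) and 405 (254 to 1093). Tlr6 had the fewest counts, 6 to 54 per library; whether depth or the spread between libraries sets the error of the rarer genes was not tested.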
